A study of Mus musculus with 12 samples.

Results

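The 9 genes described here make and move bile acids in the mouse liver. They are Cyp7a1, Cyp8b1, Cyp27a1, Cyp7b1, Hsd3b7, Baat, Slc27a5, Slc10a1 and Abcb11, and they were taken by symbol from the 38926 gene symbols of the count tables, as named steps of synthesis, conjugation and transport. All 9 passed the filter on low counts and belonged to the 14488 genes tested. Liver RNA was sequenced from 12 male mice of 12 weeks, 1 liver per library, on the strain background 129Ola/C57BL6. Of these, 3 wild-type (WT) and 3 Rev-erbα knockout (Rev KO) animals were sampled at ZT8 (zeitgeber time in hours since the lights came on, here in the light phase), and another 3 WT and 3 Rev KO animals at ZT20, in the dark phase. The Rev KO animals lack REV-ERBα in every tissue, so that the liver cannot be separated from the rest of the body as the place where the loss acts. They came from heterozygous breeding pairs, the controls were WT mice, and all groups could eat and drink freely, with light and dark phases of 12 h each. In whole liver, fewer cells of a type and less RNA per cell cannot be told apart.

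Bile acids are made from cholesterol in hepatocytes by a classical pathway that begins with 7α-hydroxylation of the sterol ring and by an alternative pathway that begins with oxidation of the side chain. The products are joined to taurine or glycine, pumped into the canaliculus, and largely taken up again from portal blood by the hepatocyte. Their synthesis varies over the day in rodents, and REV-ERBα, a nuclear receptor that represses transcription and is itself under circadian control, is known to take part in its timing.

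Between 17641809 and 26060192 reads per library were counted on genes, and 3 counts were worth 0.117 to 0.167 CPM, far below every value of the 9 genes. CPM stands for reads of a gene relative to the library size, after TMM adjustment of that size. The 9 genes together took between 0.481% and 0.642% of the reads counted on genes. Reads were still assigned to Nr1d1, the gene of REV-ERBα, in the Rev KO livers (63 to 80.6 CPM at ZT8, against 75.3 to 129 in WT). Counts per gene do not separate exons, so that they do not check the knockout label. The REV-ERBα target Arntl was at 0.448 to 0.796 CPM in WT and at 22.7 to 25.7 CPM in Rev KO at ZT8. The livers expressed the 6 hepatocyte markers in the list at a summed 54115 to 103480 CPM, whereas the 6 pancreatic markers together were at 0.177 to 1.22 CPM. Of these, Cpa1 and Prss2 had no reads in any library, Pnlip, Ctrb1 and Cel had at most 3 reads in a library, and Cela2a had 3 to 25 and was called lower at ZT20 in both genotypes. Summed markers of other liver cells were at 239 to 433 CPM for Kupffer cells, 220.04 to 304 for stellate cells, 253 to 302 for endothelial cells, 112 to 288 for blood cells and 45.7 to 115 for cholangiocytes. By genotype at ZT8 or ZT20 none of these markers was called, other than the cholangiocyte markers Sox9, higher at ZT8, and Slc10a2, lower at ZT20 in Rev KO. Alignments to several places, per read counted on a gene, differed between the times without overlap (1.76 to 3.28 at ZT8 and 1.24 to 1.67 at ZT20), and within WT at ZT8 they were 1.76 in replicate 1 and 2.89 and 3.28 in replicates 2 and 3. Their part in the results was not tested. A pair of WT livers taken at ZT8 stood apart. Replicates 2 and 3 of that group had 4972 and 6489 CPM of the acute-phase gene Saa1, whereas the other 10 libraries had 21.2 to 96.8 CPM. The summed level of 12 acute-phase genes was 27049 and 34039 CPM in these livers and 8443 to 10809 CPM in the other 10, and 8 of the 12 genes were called lower in Rev KO than in WT at ZT8. Each call for the 9 genes that rests on the WT livers at ZT8, other than the averaged effect of Cyp7b1, is therefore given with and without these libraries. In replicates 1, 2 and 3 of WT at ZT8 the Kupffer cell markers summed to 270, 357 and 433 CPM, and the blood cell markers to 246, 167 and 112 CPM. The sums were 45.7, 72.1 and 105 CPM for cholangiocytes, 253, 239 and 280 for stellate cells and 274, 285 and 290 for endothelial cells. What raised the acute-phase genes, and the part of these cell markers in the results, was not tested.

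Promoters of the 9 genes were looked up in RefSeq (GRCm38.p6) as the 250 bases before the transcription start. Entries were found for 5 of the 9 genes, with none for Cyp7a1, Cyp7b1, Baat and Slc27a5. The promoters of Cyp8b1 and Abcb11 are shown because these were the 2 genes whose genotype effect differed between ZT8 and ZT20. Both are printed 5′ to 3′ on the strand of the gene, with a motif match in capitals. In Cyp8b1 the capitals mark a match to CAAGGNCA, the site of the orphan receptor LRH-1, from 60 to 53 bases before the start. In Abcb11 they mark a match to TAGGTCA, the core of a REV-ERB response element (RORE). It lies on the opposite strand from 56 to 50 bases before the start.
Cyp8b1 promoter, chr9:121916306-121916555, minus strand: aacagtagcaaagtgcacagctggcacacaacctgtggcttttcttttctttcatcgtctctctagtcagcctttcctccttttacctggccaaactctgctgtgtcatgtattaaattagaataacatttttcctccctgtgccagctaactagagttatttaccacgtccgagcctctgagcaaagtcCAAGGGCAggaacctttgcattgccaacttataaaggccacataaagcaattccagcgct
Abcb11 promoter, chr2:69342617-69342866, minus strand: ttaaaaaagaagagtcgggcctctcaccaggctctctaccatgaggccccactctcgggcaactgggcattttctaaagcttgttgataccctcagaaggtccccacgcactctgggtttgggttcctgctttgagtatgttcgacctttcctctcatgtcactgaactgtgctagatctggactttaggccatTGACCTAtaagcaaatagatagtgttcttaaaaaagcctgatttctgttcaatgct
Of all 32851 promoter windows of this length, 5.53% held CAAGGNCA and 2.23% held TAGGTCA on either strand. The 2 RORE spellings searched were together present in 5.38% of the windows. The second of them, TGGGTCA, was present in 3.24% and in the window of Hsd3b7. That window runs into annotated exons of Hsd3b7 and of 9430064I24Rik on the opposite strand. The D-box TTATGNAA, a site for the factors DBP and NFIL3, was present in 3.07% and in the window of Cyp27a1. There it lies from 60 to 53 bases before the RefSeq start. In the GENCODE annotation, 0 of the 3 transcripts of Cyp27a1 hold the 50 bases that follow this start, so that the position is uncertain. The E-box CACGTG was present in 6.02% of the windows and in none of the 6 entries of the 5 genes. The inverted repeat 1 bound by FXR, the direct repeat 1 and the direct repeat 4 were searched as exact letters, and these were not in the windows of the 5 genes either (0.0335%, 0.0335% and 0.0152% of all windows). A match is a string of letters and not a measured binding site.

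Comparing genotypes at ZT8, when Nr1d1 is high in WT liver, asks which of the 9 genes depend on REV-ERBα at that time. Cyp8b1, Baat and Abcb11 were higher in Rev KO than in WT, and none of the 9 was called lower (3 of 9 called, adjusted p below 0.05 in edgeR's quasi-likelihood test, where 8.45% of all genes tested were called). The median log2 fold change of the 9 genes was 0.31, against 0.00 over all genes tested. The 9 genes were chosen with earlier results of these data known, so that a comparison with all genes is not independent. At ZT20 only Cyp7b1 was called, and it was higher in Rev KO (1 of 9, background 3.63%). Averaged over both time points, Cyp7b1 was again the 1 gene called (background 6.34%), and the average shares its samples with the comparisons at ZT8 and ZT20. The genotype effect at ZT8 differed from that at ZT20 for Cyp8b1 and Abcb11 (2 of 9, background 5.88%). The smallest p that exact permutation of 3 livers against 3 can reach is 0.1, and the calls therefore rest on the fit over all genes. Without the 2 acute-phase-high WT livers, edgeR had a single WT library left at ZT8 that was assumed to vary like the other groups. The log2 fold change at ZT8 was then smaller for Cyp8b1 (0.80), Baat (0.20) and Abcb11 (0.24). So was the difference of the effects for Cyp8b1 (0.97) and Abcb11 (0.44). With the mean log2 CPM of the 12 acute-phase genes as a covariate, edgeR called 0 of 9 at ZT8 and 0 for the difference. Over all genes that fit called 405 and 615. A fit of only the livers at ZT8 called 0 of 9 there, and 769 genes over all. With all 12 libraries, 5 of 9 were called at ZT8 by DESeq2, which called 1503 genes over all against 1224 in edgeR. In edgeR, 5 of 9 had an unadjusted p below 0.05 at ZT8. The share of all genes with such an unadjusted p is not given, here or below, so that these counts have no baseline. The call of Cyp7b1 at ZT20 stood in all 21 alternative fits.

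**Figure D1:**
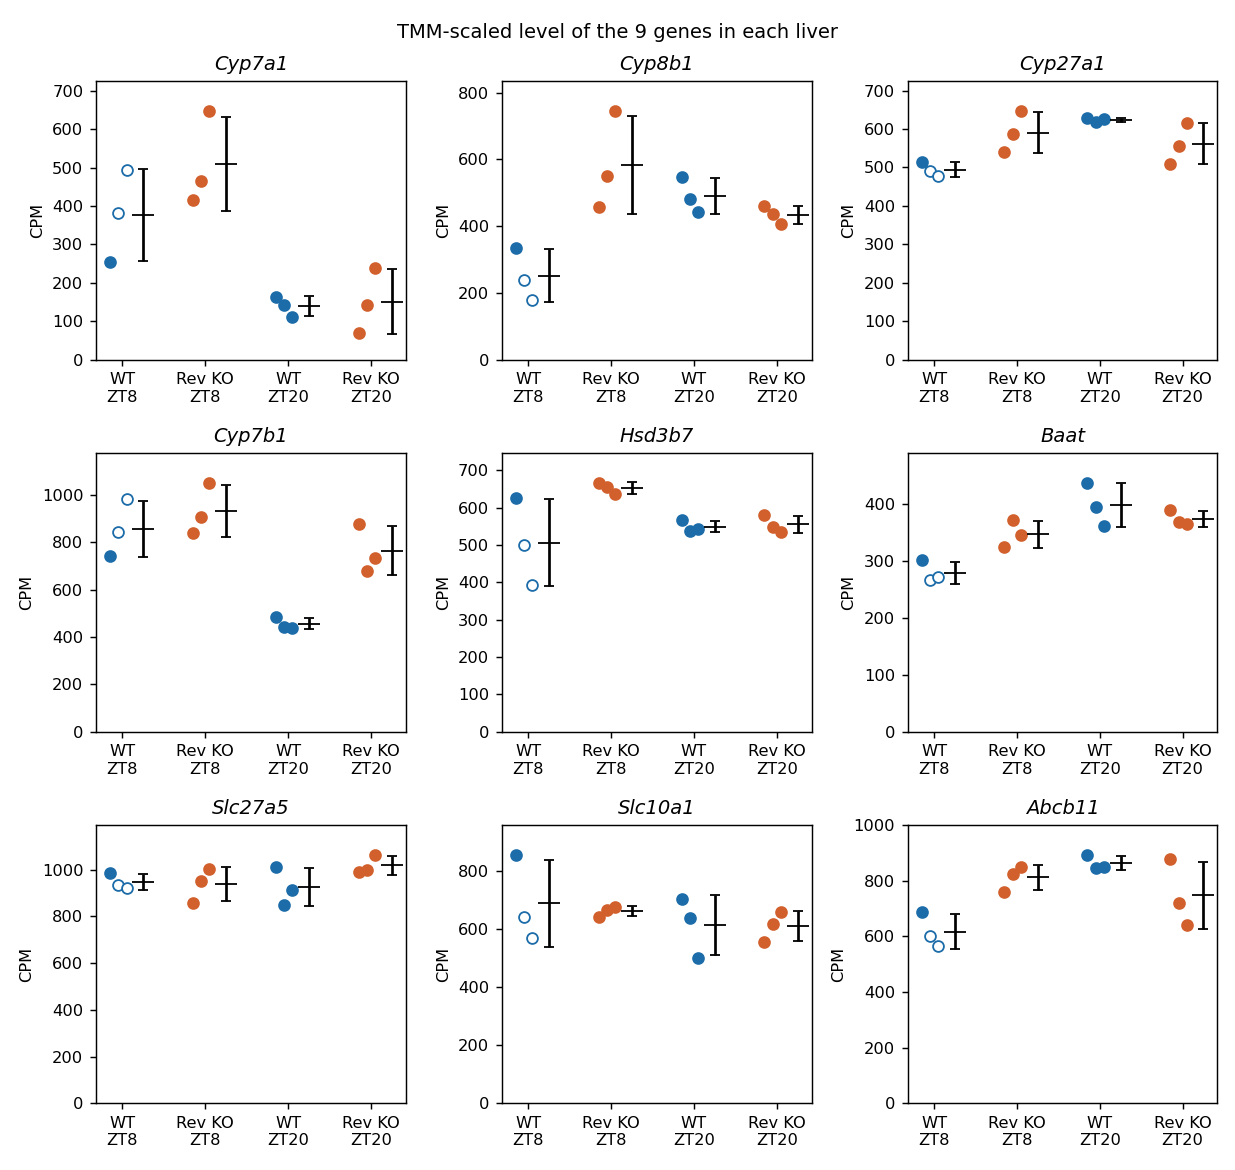
Level of each of the 9 genes in the individual livers, in CPM on an axis that starts at 0, for WT (blue) and Rev KO (orange) at ZT8 and ZT20. Points are single mice, open circles are the WT livers at ZT8 with high acute-phase transcripts, and the bars give mean ± SD of 3 mice. For Cyp7b1 the WT livers at ZT20 lie below all other livers, and for Cyp8b1 the WT livers at ZT8 do.

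Cyp7a1 (chromosome 4 of mm10, 6265612 to 6275633, minus strand) encodes cholesterol 7α-hydroxylase, the rate-limiting enzyme of the classical pathway. In WT liver at ZT8 it was present at 255, 383 and 493 CPM, and in Rev KO liver at 415, 466 and 647 CPM. Its levels at ZT20 were 163, 143 and 113 CPM in WT and 70.3, 143 and 239.7 CPM in Rev KO. All livers at ZT8 lay above all livers at ZT20, whereas the genotypes overlapped at both times. The genotype difference was within the spread of the mice, with a log2 fold change of 0.43 at ZT8 (95% interval −0.54 to 1.41, adjusted p = 0.597, edgeR) and 0.11 at ZT20 (−0.86 to 1.09, adjusted p = 0.948). These intervals are the widest of the 9 genes. Against the single WT liver at ZT8 without high acute-phase genes the log2 fold change was 0.99 (adjusted p = 0.611). From ZT8 to ZT20 the transcript fell by 1.43 on the log2 scale in WT (SE 0.43, adjusted p = 0.0396) and by 1.75 in Rev KO (SE 0.44, adjusted p = 0.0264). In WT the 2 acute-phase-high livers were the ones with more Cyp7a1 at ZT8, and without them the change was −0.88 (adjusted p = 0.444). When single libraries were left out, the change in WT ran from −1.66 to −1.19 and was called in 4 of 12 fits, and that in Rev KO ran from −2.26 to −1.41 and was called in 9 of 12. The call in WT was lost without replicate 2 or 3 of WT at ZT8 (adjusted p = 0.0901 and 0.124), replicate 1, 2 or 3 of WT at ZT20 (0.0801, 0.103 and 0.111), replicate 1 or 2 of Rev KO at ZT8 (0.0514 and 0.0572) or replicate 2 of Rev KO at ZT20 (0.0599). The libraries whose loss ended the call in Rev KO were replicates 2 and 3 at ZT8 (adjusted p = 0.0587 and 0.0733) and replicate 2 at ZT20 (0.0927).

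Cyp8b1 (chromosome 9, 121914356 to 121916305, minus strand, a gene of a single exon) encodes sterol 12α-hydroxylase, which directs the classical pathway to cholic acid. It was present at 336, 239 and 178 CPM in WT and at 458, 549 and 745 CPM in Rev KO at ZT8. At ZT20 the values were 548, 482 and 442 CPM in WT and 459, 437 and 406 CPM in Rev KO. The Rev KO livers lay above all WT livers at ZT8, and the genotypes overlapped at ZT20. The mean at ZT8 was 251 ± 79.2 CPM in WT and 584 ± 147 CPM in Rev KO (SD, n = 3), a fold change of 2.33 (log2 1.22, SE 0.22, adjusted p = 0.00742). At ZT20 the log2 fold change was −0.18 (95% interval −0.66 to 0.31, adjusted p = 0.811). The effect was thus larger at ZT8 than at ZT20 by 1.39 (SE 0.31, adjusted p = 0.0253). In WT the transcript rose from ZT8 to ZT20 by 0.97 on the log2 scale (adjusted p = 0.00797), whereas in Rev KO the change was −0.43 (−0.91 to 0.06, adjusted p = 0.219). The WT liver at ZT8 without the acute-phase response had the highest Cyp8b1 of its group and still lay below every Rev KO liver. Without the other 2 livers the log2 fold change at ZT8 was 0.80 (adjusted p = 0.116), the difference of the effects 0.97 (0.0958) and the change over time in WT 0.54 (0.159), and none was called. The call at ZT8 stood in all 12 fits that left out a single library (log2 1.01 to 1.48), and it was lost when only the 6 livers at ZT8 were fitted (1.21, adjusted p = 0.0678). The difference of the effects was called in 5 of these 12 fits, and was lost without replicate 2 of WT at ZT8 (adjusted p = 0.0674), replicate 1 or 2 of WT at ZT20 (0.0683 and 0.0581), replicate 2 of Rev KO at ZT8 (0.0506) or replicate 1, 2 or 3 of Rev KO at ZT20 (0.0504, 0.0645 and 0.0651). The average genotype effect, 0.52 (adjusted p = 0.0787), was called by DESeq2 (0.52, adjusted p = 0.00429) and, in edgeR, without replicate 1 of WT at ZT8 (0.65, adjusted p = 0.00832).

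Hsd3b7 (chromosome 7, 127800604 to 127803802, plus strand) encodes the 3β-hydroxysteroid dehydrogenase that acts on the 7α-hydroxylated sterols of both pathways. It was present at 627, 499 and 394 CPM in WT and at 667, 655 and 637 CPM in Rev KO at ZT8. The livers of ZT20 had it at 567, 539 and 543 CPM in WT and at 580, 549 and 536 CPM in Rev KO. Only the WT group at ZT8 was spread out, and its lowest livers were the 2 with high acute-phase genes. The log2 fold change at ZT8 was 0.37 (SE 0.13, adjusted p = 0.0867, and 0.0416 by DESeq2, which called it) and became 0.05 (adjusted p = 0.894) without these livers. Leaving out replicate 1 of the same group instead moved it to 0.54 (adjusted p = 0.00243), and with it the average effect to 0.28 (0.0149), the difference of the effects to 0.52 (0.0220) and the change over time in WT to 0.29 (0.0404), all of which were then called. At ZT20 it was 0.01 (95% interval −0.25 to 0.28, adjusted p = 0.981). In the GENCODE annotation of mm10, 62.4% of the exon bases of Hsd3b7 are shared with 9430064I24Rik on the opposite strand and 62.0% with Gm49388 on the same strand. Neither symbol has a row in the count tables and the reads were counted without regard to strand, so that the source of the Hsd3b7 reads is uncertain.

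Cyp27a1 (chromosome 1, 74713574 to 74737892, plus strand) encodes the mitochondrial sterol 27-hydroxylase, which begins the alternative pathway and also oxidises the side chain in the classical pathway. It was at 514, 491 and 477 CPM in WT and at 539, 586 and 647 CPM in Rev KO at ZT8. At ZT20 it was at 629, 618 and 625 CPM in WT and at 509.97, 557 and 616 CPM in Rev KO. The order of the genotypes turned between the time points without overlap, with Rev KO above WT at ZT8 and below WT at ZT20. Neither difference passed the test over all genes (log2 0.26, adjusted p = 0.107, and −0.15, adjusted p = 0.511), nor did the difference between them (0.41, SE 0.13, adjusted p = 0.0876). DESeq2 called the effect at ZT8 (0.25, adjusted p = 0.0371) and the difference (0.41, adjusted p = 0.0176). Over time the transcript rose in WT by 0.34 on the log2 scale (SE 0.09, adjusted p = 0.0151), and the change in Rev KO was −0.07 (95% interval −0.28 to 0.13, adjusted p = 0.648). Without the acute-phase-high livers the change in WT was 0.27 (adjusted p = 0.228), and without replicate 2 of WT at ZT8 alone it was 0.33 (0.0558).

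Cyp7b1 (chromosome 3, 18071950 to 18243338, minus strand) encodes oxysterol 7α-hydroxylase, which acts on the products of CYP27A1 in the alternative pathway. At ZT8 it was at 743, 844 and 982 CPM in WT and at 837, 908 and 1052 CPM in Rev KO. Its levels at ZT20 were 482, 444 and 439.6 CPM in WT and 879, 678 and 735 CPM in Rev KO. The genotypes overlapped at ZT8, and all Rev KO livers lay above all WT livers at ZT20. The mean at ZT20 was 455 ± 23.7 CPM in WT and 764 ± 103 CPM in Rev KO (SD, n = 3), a fold change of 1.68 (log2 0.75, SE 0.13, adjusted p = 0.00275). At ZT8 the log2 fold change was 0.12 (95% interval −0.14 to 0.39, adjusted p = 0.602), and averaged over the time points it was 0.43 (SE 0.09, adjusted p = 0.00836). In WT the transcript fell towards ZT20 by 0.91 on the log2 scale (SE 0.13, adjusted p = 7.85e-05). In Rev KO the change was −0.29 (−0.55 to −0.02, adjusted p = 0.132). The difference between the genotype effects, −0.62 (SE 0.18, adjusted p = 0.0511), missed the threshold in edgeR and passed it in DESeq2 (adjusted p = 0.0104), so that the call depends on the test. In edgeR it passed without replicate 1 of WT at ZT8 (−0.73, adjusted p = 0.0125) and without replicate 3 of Rev KO at ZT8 (−0.72, adjusted p = 0.0304). Without the acute-phase-high livers, which had the higher Cyp7b1 values of their group, the effect at ZT20 was 0.75 (adjusted p = 0.00101), the change over time in WT was −0.71 (0.0064) and the difference of the effects was −0.43 (0.317). The effect at ZT20, the average effect and the change in WT were called in every alternative fit in which they were computed.

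Slc27a5 (chromosome 7, 12988346 to 12998192, minus strand) encodes the bile acid CoA ligase, which activates bile acids for conjugation. It was at 987, 936 and 920.4 CPM in WT and at 859, 952 and 1004 CPM in Rev KO at ZT8. The livers of ZT20 had it at 1013, 851 and 913 CPM in WT and at 991, 1000 and 1065 CPM in Rev KO. The genotypes overlapped at both times, and no comparison passed the test. The genotype difference was −0.01 on the log2 scale at ZT8 (95% interval −0.22 to 0.19) and 0.14 at ZT20 (−0.07 to 0.34). Baat (chromosome 4, 49489422 to 49506557, minus strand) encodes the amino acid N-acyltransferase that joins the activated bile acid to taurine or glycine. It was at 301, 266 and 271 CPM in WT and at 324, 371 and 346 CPM in Rev KO at ZT8. At ZT20 it was at 437, 395 and 361 CPM in WT and at 388, 367 and 364 CPM in Rev KO. All Rev KO livers lay above all WT livers at ZT8, and the genotypes overlapped at ZT20. The log2 fold change was 0.31 at ZT8 (SE 0.09, adjusted p = 0.0439) and −0.09 at ZT20 (95% interval −0.28 to 0.10, adjusted p = 0.732), with a difference of 0.40 that edgeR did not call (adjusted p = 0.0796) and DESeq2 did (0.0246). In WT, Baat rose from ZT8 to ZT20 by 0.51 (SE 0.09, adjusted p = 0.000667), and the change in Rev KO was 0.11 (−0.09 to 0.30, adjusted p = 0.469). The genotype effect at ZT8 was 0.20 (adjusted p = 0.550) and the change in WT 0.40 (adjusted p = 0.0592) without the acute-phase-high livers. The effect at ZT8 was lost in 7 of the 12 fits without a single library, without replicate 2 or 3 of WT at ZT8 (adjusted p = 0.185 and 0.128), replicate 2 or 3 of Rev KO at ZT8 (0.178 and 0.0749), replicate 2 of WT at ZT20 (0.0691) or replicate 2 or 3 of Rev KO at ZT20 (0.0696 and 0.0507). The difference of the effects was called without replicate 1 of WT at ZT8 (0.45, adjusted p = 0.0349).

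Slc10a1 (chromosome 12, 80953183 to 80968705, minus strand) encodes NTCP, the sodium-dependent carrier that takes up conjugated bile acids from portal blood. It was at 857, 642 and 568 CPM in WT and at 643, 667 and 678 CPM in Rev KO at ZT8. Its levels at ZT20 were 705, 637 and 499.97 CPM in WT and 554, 617 and 659 CPM in Rev KO. The groups overlapped, and the WT livers were more spread out than the Rev KO livers at both times. No comparison passed the test, with a genotype difference of −0.06 at ZT8 (95% interval −0.37 to 0.26) and −0.01 at ZT20 (−0.32 to 0.30). The single WT liver at ZT8 without an acute-phase response had the highest value of all 12, and against it alone the difference was −0.37 (adjusted p = 0.310). Abcb11 (chromosome 2, 69238282 to 69342616, minus strand) encodes BSEP, the pump that exports bile salts into the canaliculus. It was at 687, 601 and 565 CPM in WT and at 760, 825 and 851 CPM in Rev KO at ZT8. The livers of ZT20 had it at 894, 846 and 851 CPM in WT and at 880, 721 and 642 CPM in Rev KO. The WT livers at ZT8 lay below all Rev KO livers of that time, and at ZT20 the genotypes overlapped. The log2 fold change was 0.39 at ZT8 (SE 0.11, adjusted p = 0.0457) and −0.21 at ZT20 (95% interval −0.45 to 0.04, adjusted p = 0.441), and these effects differed by 0.60 (SE 0.16, adjusted p = 0.0400). In WT, Abcb11 rose from ZT8 to ZT20 by 0.48 (SE 0.11, adjusted p = 0.00557), and in Rev KO the change was −0.12 (−0.36 to 0.13, adjusted p = 0.536). Without the acute-phase-high livers the effect at ZT8 was 0.24 (adjusted p = 0.571), the difference 0.44 (0.288) and the change in WT 0.32 (0.212). The effect at ZT8 and the difference were each called in 3 of the 12 fits that left out a single library. The effect at ZT8 was lost without replicate 2 or 3 of WT at ZT8 (adjusted p = 0.164 and 0.154), replicate 1, 2 or 3 of Rev KO at ZT8 (0.0608, 0.136 and 0.104), replicate 1, 2 or 3 of WT at ZT20 (0.0563, 0.0706 and 0.0582) or replicate 2 of Rev KO at ZT20 (0.0694). The difference was lost without replicate 2 or 3 of WT at ZT8 (0.110 and 0.0835), replicate 2 or 3 of Rev KO at ZT8 (0.0955 and 0.0716), replicate 1, 2 or 3 of WT at ZT20 (0.0945, 0.0851 and 0.0627) or replicate 2 or 3 of Rev KO at ZT20 (0.115 and 0.0815). The antisense gene Gm13613 covers 2.64% of the exon bases of Abcb11.

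**Figure D2:**
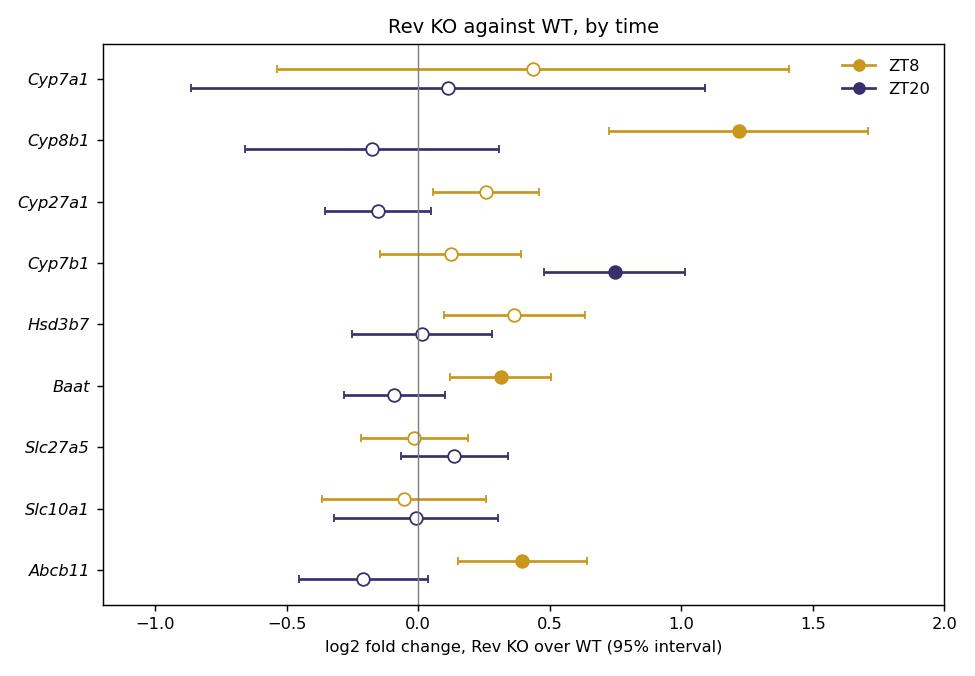
Log2 fold change of Rev KO over WT for the 9 genes at ZT8 (yellow) and ZT20 (dark blue), with 95% intervals from edgeR on all 12 libraries. Filled points have an adjusted p below 0.05, which Cyp8b1, Baat and Abcb11 reached at ZT8 and Cyp7b1 at ZT20.

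**Figure D3:**
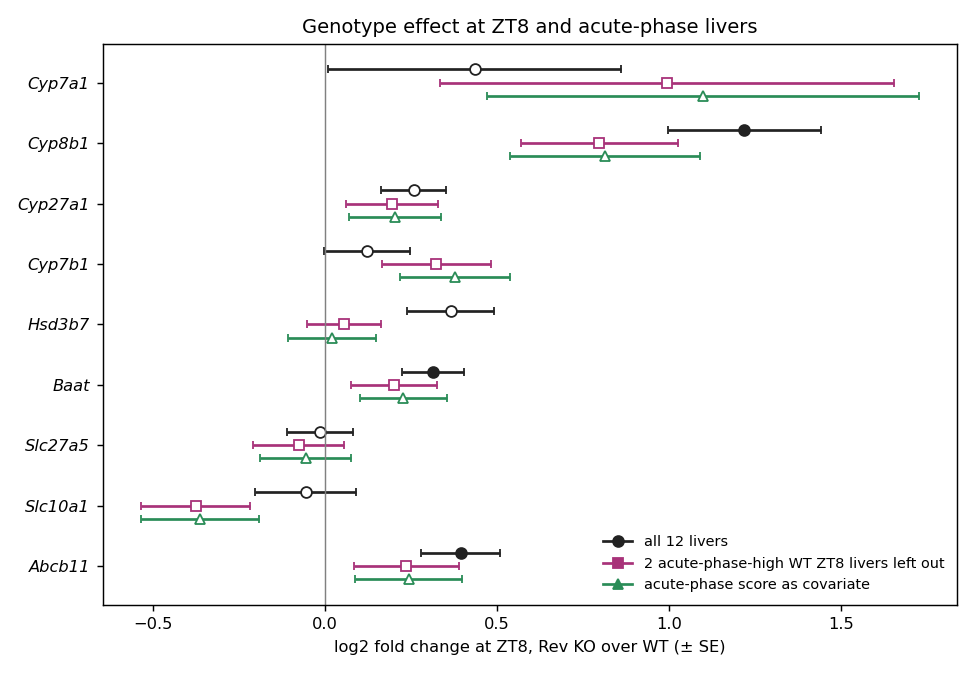
Log2 fold change of Rev KO over WT at ZT8 (± SE) with all 12 livers, without the 2 WT livers with high acute-phase transcripts, and with the acute-phase score as a covariate. Filled symbols have an adjusted p below 0.05. The effect of Cyp8b1 was 1.22, 0.80 and 0.81 in this order, and that of Hsd3b7 0.37, 0.05 and 0.02.

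The comparison of ZT20 with ZT8 within a genotype asks whether the day-night difference of the 9 genes is present without REV-ERBα. In WT, Cyp8b1, Cyp27a1, Baat and Abcb11 were higher and Cyp7a1 and Cyp7b1 lower at ZT20 (6 of 9 called, background 27.7%). In Rev KO only Cyp7a1 was called, and it was lower at ZT20 (1 of 9, background 17.5%). The median log2 change was 0.12 in WT and −0.12 in Rev KO. A call in WT and none in Rev KO does not show a difference between the genotypes, which was tested as the difference of the effects and was called for Cyp8b1 and Abcb11. Without the acute-phase-high livers, a single WT library was left at ZT8. The changes in WT were then smaller for Cyp7a1 (−0.88), Cyp8b1 (0.54), Cyp27a1 (0.27), Baat (0.40) and Abcb11 (0.32). That of Cyp7b1 is given with this gene above. With the acute-phase covariate and all 12 livers, 2 of 9 were called in WT, and the calls of Cyp7a1, Cyp8b1, Cyp27a1 and Abcb11 were lost. Over all genes the calls in WT went from 4018 to 2122 in that fit. The summed level of 8 pericentral markers also moved with time, from 11160 to 14323 CPM at ZT8 to 8584 to 9273 CPM at ZT20 over both genotypes, with 4 of 8 called lower at ZT20 in WT and 3 of 8 in Rev KO. The summed level of 8 periportal markers was 8744 to 9370 CPM at ZT8 and 10364 to 12793 CPM at ZT20 in WT, with 5 called higher and 2 lower, and 9138 to 10792 CPM over both times in Rev KO. The part of these zone markers in the results was not tested.

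**Figure D4:**
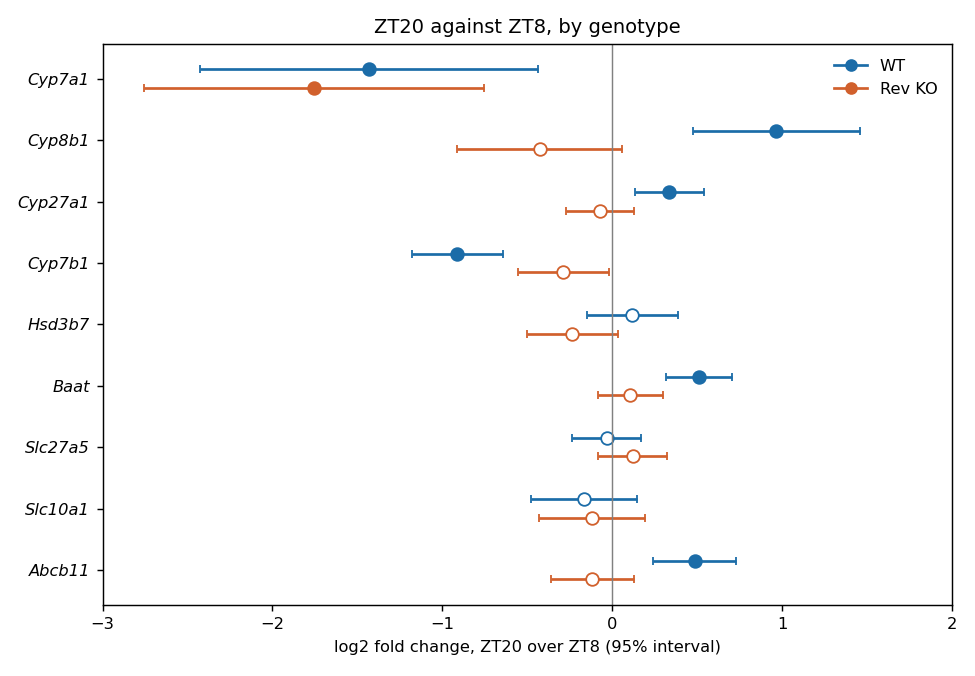
Log2 fold change of ZT20 over ZT8 for the 9 genes in WT (blue) and Rev KO (orange), with 95% intervals from edgeR on all 12 libraries. Filled points have an adjusted p below 0.05, which 6 genes reached in WT and Cyp7a1 alone in Rev KO.

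The levels of different genes were compared as CPM per kb of merged exons. On this scale Cyp7a1 was the lowest of the 9 genes in every group, at 90.3 ± 28.5 in WT and 122 ± 29.3 in Rev KO at ZT8, and at 33.4 ± 6.06 and 36.2 ± 20.4 at ZT20 (SD, n = 3). Abcb11 was next above it in every group. Its range overlapped that of Cyp7a1 at ZT8 and lay above it at ZT20. Cyp7b1 and Slc27a5 had the highest means at ZT8 and overlapped there, at 395 and 389 in WT and at 431 and 385 in Rev KO. In WT the range of Slc10a1 (mean 313) overlapped both. At ZT20 Slc27a5 was above all others, at 379.8 in WT and 418 in Rev KO. Cyp7b1 was the fifth in WT at ZT20, at 210.2, where its range overlapped those of Baat and Hsd3b7, and the second in Rev KO, at 353. Cyp8b1 was the seventh in WT at ZT8, at 129, and lay in a stretch of overlapping neighbours from Cyp27a1 (227) down to Cyp7a1. In the other groups it was close to the middle of the order, at 300 in Rev KO at ZT8, 252 in WT at ZT20 and 223 in Rev KO at ZT20.

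Over the 12 livers, the log2 levels of Cyp8b1 were correlated with those of Abcb11 (Pearson r = 0.863), Cyp27a1 (0.800), Hsd3b7 (0.780) and Baat (0.779). After subtraction of the group means the values were 0.679, 0.503, 0.725 and 0.606. Within groups the values with Slc10a1 (0.696) and Slc27a5 (0.619) were of the same size, although over the 12 livers they were 0.137 and 0.188. In WT at ZT8 all of these genes were highest in replicate 1 and lower in the acute-phase-high livers. The part of these livers in the correlations was not tested. Cyp7a1 was correlated with Cyp7b1 (0.638, and 0.113 within groups), and within groups it ran against Abcb11 (−0.762). These are descriptions of 12 libraries that share 4 group means. Of all genes tested, the most similar to Cyp7a1 were Rbm48 (0.979), Gorasp1 (0.965) and Usp36 (0.951), and those most similar to Cyp8b1 were 5830473C10Rik (0.952), Naa25 (0.941) and Rbbp5 (0.930). For Cyp7b1 they were Ppm1h (0.961), Gm16580 (0.949) and Plbd1 (0.946), and for Slc10a1 they were Gpt2 (0.907), Fbxo34 (0.900) and Anks4b (0.893).

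A list of 26 further genes of bile acid synthesis and transport was examined, of which 25 were in the count tables and 22 passed the filter. Sult2a8 was not analysed here, and Ch25h, Slc51a and Slc51b were too low. At ZT8, 5 of 22 were called, 3 higher and 2 lower in Rev KO (the background is 8.45% as above). Cyp2c70, the enzyme of muricholic acid synthesis in the mouse, was at 677, 754 and 859 CPM in WT and at 1331, 1413 and 1381 CPM in Rev KO. These groups did not overlap, and the log2 fold change was 0.85 (adjusted p = 0.000281). The peroxisomal thiolase gene Scp2 rose by 0.40 (adjusted p = 0.0494) and the uptake carrier Slco1a1 by 0.43 (0.0360). Abcg5 and Abcg8 together form the canalicular sterol exporter and were lower in Rev KO. Abcg5 was at 134, 151 and 150.4 CPM in WT and at 75, 86.6 and 93.9 CPM in Rev KO at ZT8, and Abcg8 at 214, 224 and 223 against 110.4, 114 and 124 CPM. Neither pair of groups overlapped, and the log2 fold changes were −0.77 (adjusted p = 3.66e-05) and −0.93 (4.33e-05). The annotated spans of Abcg5 and Abcg8 overlap on opposite strands, and reads were counted without strand. In contrast to Scp2 and Slco1a1, the calls of Cyp2c70, Abcg5 and Abcg8 stood without the acute-phase-high livers (1.02, −0.66 and −0.89, adjusted p = 0.00216, 0.00501 and 0.00415).

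At ZT20, edgeR called 0 of the 22 genes (background 3.63%), with 2 at an unadjusted p below 0.05. DESeq2 called 2, Cyp39a1 and Abcc2, and 706 genes over all. The largest log2 fold change there was that of Cyp39a1, the oxysterol hydroxylase that acts on 24-hydroxycholesterol, at −2.78 (adjusted p = 0.0710). Its levels were 28.3, 22.6 and 17.8 CPM in WT and 3.48, 4.64 and 1.82 CPM in Rev KO, without overlap. The WT livers at ZT8 had 1.75, 8.97 and 16.1 CPM and the Rev KO livers 6.23, 4.89 and 3.28 CPM, so that Cyp39a1 was spread out in WT at ZT8, with the 2 acute-phase-high livers above the other. Without these livers the effect at ZT20 was −2.77 and was called (adjusted p = 0.00306). The genotype effects at ZT8 and ZT20 differed for 3 of 22 genes (background 5.88%), Cyp2c70 (0.61, adjusted p = 0.0337), Abcg5 (−0.70, 0.00203) and Abcg8 (−0.78, 0.00399). Averaged over the times, the same 3 genes were called (0.54, −0.42 and −0.53). From ZT8 to ZT20, 10 of 22 changed in WT, 4 higher and 6 lower (background 27.7%), and 6 of 22 in Rev KO, 1 higher and 5 lower (background 17.5%). In WT, Abcg8 (−1.69), Abcg5 (−1.54), the canalicular conjugate pump Abcc2 (−0.82), the phospholipid flippase Abcb4 (−0.63) and the uptake carrier Slco1b2 (−0.57) were among those that fell. The 5β-reductase gene Akr1d1 (0.75), Cyp2c70 (0.48) and the aminophospholipid flippase Atp8b1 (0.45) were among those that rose. In Rev KO, Abcg8 (−0.90), Abcg5 (−0.84), Slco1b2 (−0.65), Abcb4 (−0.60) and Slc27a2 (−0.46) fell, and Atp8b1 (0.41) rose.

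**Figure D5:**
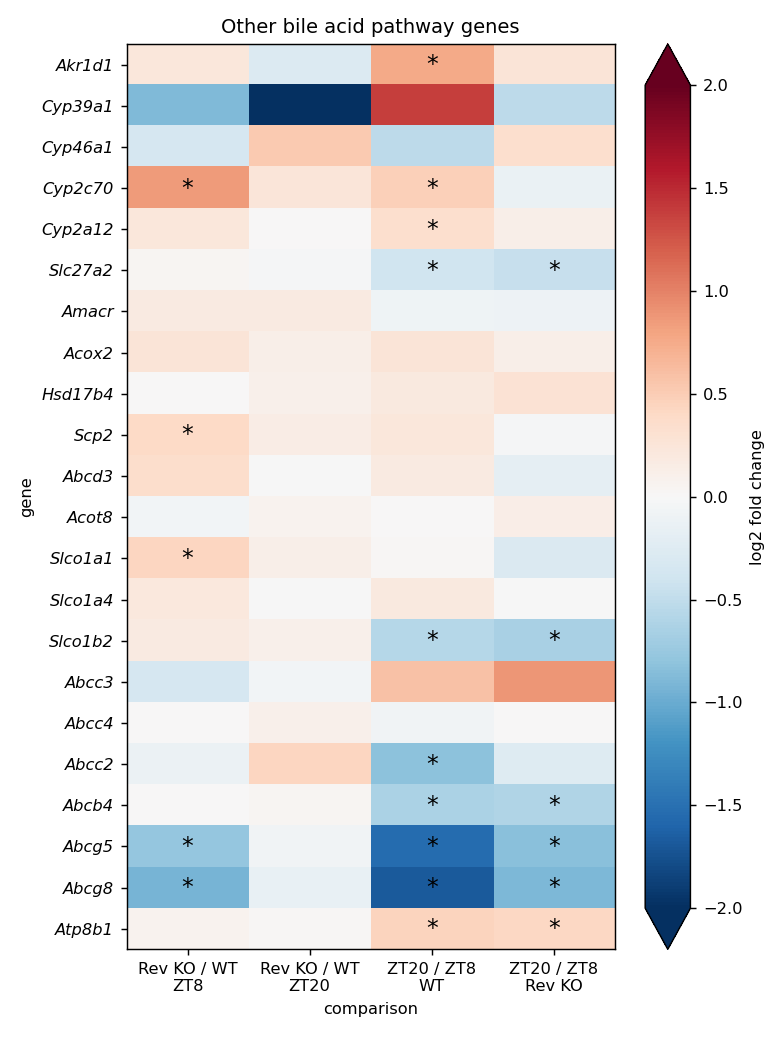
Log2 fold change (colour) of 22 further bile acid genes in 4 comparisons, with an asterisk where the adjusted p was below 0.05 in edgeR on all 12 libraries. Abcg5 and Abcg8 are lower in Rev KO at ZT8 and fall from ZT8 to ZT20 in both genotypes, and colours are cut at 2 in either direction.

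Of 25 regulators of bile acid synthesis in the list, 23 were tested, and Fgf15 and Gpbar1 were too low. At ZT8, 4 of the 23 were called, 3 higher and 1 lower in Rev KO (background 8.45%), and those higher were Nfil3, Insig2 and Hnf4a. The repressor gene Nfil3, which is a known REV-ERBα target, was at 11.4 to 12.9 CPM in WT and at 58.5 to 60.1 CPM in Rev KO (log2 2.29, adjusted p = 3.75e-11). Insig2, which encodes a protein that holds SREBP in the endoplasmic reticulum, was at 79.9, 65.4 and 55.2 CPM in WT and at 190.02, 195 and 215 CPM in Rev KO (log2 1.58, adjusted p = 3.95e-05). Both calls stood without the acute-phase-high livers (2.20 and 1.32, adjusted p = 1.19e-07 and 0.00385). Hnf4a, a nuclear receptor of the hepatocyte that acts on Cyp7a1 and Cyp8b1, was higher by 0.35 (adjusted p = 0.0366) and by 0.40 without these livers (0.182). The genotype effects at ZT8 and ZT20 differed for Nfil3 (2.48), Insig2 (1.68) and Hnf4a (0.50). At ZT20, edgeR and DESeq2 each called 0 of the 23, with 4 at an unadjusted p below 0.05 in edgeR. Over all genes the background there was 3.63% in edgeR, and DESeq2 called 706 genes. Averaged over the times, 3 of 23 were called, 2 higher and 1 lower (background 6.34%), and those higher were Nfil3 (1.05) and Insig2 (0.74). The gene of the repressor SHP, Nr0b2, was not called, and its 3 WT livers at ZT8 had 37, 13.3 and 2.85 CPM, with the lowest values in the 2 acute-phase-high livers.

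Over time, 12 of the 23 regulators were called in WT, 6 higher and 6 lower, and 13 in Rev KO, 5 higher and 8 lower (backgrounds 27.7% and 17.5%). Dbp (−5.73 in WT and −5.88 in Rev KO), Bhlhe41 (−3.06 and −3.04), Tef (−1.51 and −1.42), Ppara (−0.96 and −0.73), Hlf (−0.52 and −0.70) and Klb (−0.44 and −0.58) were lower at ZT20 in both genotypes. Rora (0.66 and 0.71), Insig2 (2.41 and 0.73) and Srebf2 (0.60 and 0.28) were higher in both. Nfil3 rose in WT (2.22) and fell in Rev KO (−0.26). Nr1i2 (0.30) was called in WT alone, and Hnf4a (−0.45) and Fgfr4 (0.29) in Rev KO alone. Nr1h4, Nr0b2, Nr5a2, Nr1h3, Nr1i3, Bhlhe40, Srebf1, Mafg and Prox1 were called in none of the 6 comparisons.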

How the data were processed

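The authors extracted RNA from whole liver and sequenced it. Per the labels and the study's methods, reads were aligned to mm10 with TopHat and assigned to genes with HTSeq (union mode, minimum mapping quality 10, no use of strand), and the submitters' processing notes also name SAMtools and DESeq2 1.6.3. The deposited values are whole-number counts per gene and library, without normalization. The 5 summary lines of each table were left out of the library sizes. Reads outside any gene amounted to 8.50% to 9.95% and ambiguous reads to 3.08% to 3.62%.

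Groups were taken from the labels. Counts were filtered with filterByExpr, scaled with TMM and fitted over all 12 libraries as 4 group means with edgeR 4.0.16 (R 4.3.3) by the robust quasi-likelihood test, with Benjamini-Hochberg adjustment over all 14488 genes and a threshold of 0.05. The 6 contrasts were Rev KO against WT at ZT8, at ZT20 and averaged, the difference of the effects (ZT8 minus ZT20), and ZT20 against ZT8 in each genotype. Contrasts of time and genotype share samples. Fold changes carry SE and 95% intervals from the fit, and levels are CPM with SD. Nothing in the sources says more of the replicates than that they are separate mice. The biological coefficient of variation was 0.123. On simulated counts for the comparison at ZT8 (14263 genes), edgeR recovered 88% of 200 genes changed 3-fold, with 7 false calls, and DESeq2 90%, with 13 false calls. The simulation held no day-night difference and no acute-phase-high livers. Its rates do not carry over to smaller changes or to calls that rest on those livers.

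The members and gene lists were chosen with earlier results of these data known. Named were all 9 members, every further pathway gene called in a comparison (at most 8 with the largest change per comparison), the regulators tested except 1 that is not reported here, and the 3 genes of highest Pearson correlation with Cyp7a1, Cyp8b1, Cyp7b1 and Slc10a1. Acute-phase and cell type marker lists were used as counts and sums. Alternatives were DESeq2 1.42.0, other size factors and filters, fewer groups in the fit, a replicate block, a threshold of 0.01, each library left out, both acute-phase-high WT livers left out, and the acute-phase score (mean log2 CPM of the list) as a covariate. Same-numbered replicates did not deviate together (18 pairs, correlations −0.083 to 0.074). Gene positions are from GENCODE M21 and promoters from RefSeq GRCm38.p6. Figures were drawn with matplotlib 3.10.9.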

Additional observations from a re-analysis of the deposited data

Results flagged for a closer look

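For 2 of the 9 genes the effect of the genotype differed between the times of day by the test of the difference itself (background 5.88%). The log2 fold change of Cyp8b1 in Rev KO over WT was larger at ZT8 than at ZT20 by 1.39 (adjusted p = 0.0253, edgeR), with all 3 Rev KO livers above all 3 WT livers at ZT8 and overlapping groups at ZT20. The same difference for Abcb11 was 0.60 (adjusted p = 0.0400), again without overlap at ZT8 and with overlap at ZT20. Of the 12 fits that left out a single library, the difference was called in 5 for Cyp8b1 and in 3 for Abcb11. With the acute-phase covariate or at a threshold of 0.01 it was called for 0 of the 9 genes. Without the 2 acute-phase-high WT livers the differences were 0.97 for Cyp8b1 and 0.44 for Abcb11 (adjusted p = 0.0958 and 0.288).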

How the results depend on the processing

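Of 1116 values from alternative fits for 54 log2 fold changes, 998 kept their direction and their side of the threshold, 76 lost the call, 16 gained it and 26 changed sign. The calls that stood in every alternative were those of Cyp7b1 at ZT20, averaged and over time in WT. The replicate block changed 0 calls of the 9 genes and moved no count by over 1.5 times. Same-numbered livers did not deviate together, and the sources do not say whether they share a day or batch. Under the block the effects at ZT20 of Cyp7a1 (−0.0597) and Slc10a1 (0.00744) changed sign. With the acute-phase covariate Hsd3b7 changed sign at ZT20 (−0.0318), averaged (−0.00587) and over time in WT (−0.17), and without both acute-phase-high livers over time in WT (−0.20). None of these was called, and the cause was not tested.

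Counts of the 9 genes called moved as follows. At ZT8, where 3 were called, the count was 5 by DESeq2, 0 with the 6 compared livers, the covariate or both livers left out, and 1 at a threshold of 0.01. For the difference of the effects (2 called) it was 5 by DESeq2 and 0 with the covariate, without both livers or at 0.01. For the average it was 2 by DESeq2. Over time in WT (6 called) it was 2 with the covariate and 1 without both livers, and in Rev KO (1 called) 0 with the compared livers or at 0.01 and 2 without both livers. Of the 22 further pathway genes, 3 instead of 5 were called at ZT8 with the compared livers, the covariate, both livers left out or 0.01. At ZT20, instead of 0, there were 2 by DESeq2, 1 without a filter, 1 with the compared livers, 2 with the covariate and 1 without both livers, and averaged, instead of 3, 6 by DESeq2 and 5 without a filter. Fits of the compared groups alone were not run for the average and the difference, which need all 4 groups. Without a filter the difference of the effects was called for Cyp7b1 (adjusted p = 0.0152) and lost for Cyp8b1 (0.0786).

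With single libraries left out, the 9 genes gave 1 to 4 calls at ZT8, 1 at ZT20, 1 to 3 averaged, 0 to 5 for the difference, 4 to 7 over time in WT and 0 to 1 in Rev KO. The highest counts averaged (3) and for the difference (5) came without replicate 1 of WT at ZT8. Over all genes the calls of that fit rose as well, from 1224 to 1811 at ZT8, 919 to 1348 averaged and 852 to 1260 for the difference. The difference had 0 calls without replicate 2 of WT at ZT8, 2 of Rev KO at ZT8, 1 or 2 of WT at ZT20 or 2 or 3 of Rev KO at ZT20. The count at ZT8 was 1 without replicate 2 or 3 of WT or Rev KO at ZT8, or replicate 2 of either genotype at ZT20. The pathway genes gave 3 to 8, 0 to 2, 3 to 8, 2 to 4, 8 to 12 and 5 to 8 calls in the same order, with 8 at ZT8 and averaged without replicate 1 of WT at ZT8. Changes of sign occurred within these ranges for Cyp7a1 at ZT20 (−0.39 to 0.46) and for the difference (−0.0185 to 0.82), for Hsd3b7 at ZT20 (−0.0186 to 0.0395) and over time in WT (−0.0348 to 0.29), and for Slc27a5 at ZT8 (−0.0648 to 0.0419) and over time in WT (−0.10 to 0.0254). Slc10a1 ran from −0.18 to 0.13 at ZT8, −0.13 to 0.10 at ZT20, −0.0952 to 0.0625 averaged, −0.17 to 0.13 for the difference and −0.29 to 0.0104 over time in WT.

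Over all genes, the calls at ZT8 went from 1224 to 769 with the compared livers, 405 with the covariate, 346 without both livers and 472 at 0.01. The average went from 919 to 474, 494 and 353 with the covariate, without both livers and at 0.01, the difference from 852 to 493 and 357 without both livers and at 0.01, and the change in WT from 4018 to 2122, 1795 and 2343. At 0.01 the calls at ZT20 went from 526 to 223 and those over time in Rev KO from 2530 to 1231. DESeq2 called 1503 genes at ZT8, 706 at ZT20, 1174 averaged and 1104 for the difference. With single libraries left out, the calls at ZT8 were 542 and 749 without replicates 2 and 3 of WT at ZT8 and 607 without replicate 2 of Rev KO at ZT8, and those at ZT20 were 322 and 239 without replicates 1 and 2 of WT at ZT20 and 262 without replicate 2 of Rev KO at ZT20. Without replicate 2 of WT at ZT8, of Rev KO at ZT8, of WT at ZT20 or of Rev KO at ZT20 the average had 553, 600, 555 and 604 calls and the difference 509, 548, 493 and 516, and over time in Rev KO there were 1663 and 1566 without replicate 2 of Rev KO at ZT8 or ZT20. All values of the 9 genes lay far above the level of 3 counts, and the intervals were widest for Cyp7a1.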

Other observations

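Slc10a2, which encodes the apical sodium-dependent bile acid transporter and stood in the list of cholangiocyte markers, is named here after its values were seen. It was at 7.72, 8.77 and 9.96 CPM in WT and at 11, 7.17 and 4.60 CPM in Rev KO at ZT8. At ZT20 it was at 72.8, 66.3 and 47.8 CPM in WT and at 12.1, 13.2 and 11.3 CPM in Rev KO. The WT livers at ZT20 lay above all others. The log2 fold change of Rev KO over WT at ZT20 was −2.35 (SE 0.25, adjusted p = 0.000728, edgeR), and the genotype effects at ZT8 and ZT20 differed by 2.13 (adjusted p = 0.00964), or by 2.31 without the 2 acute-phase-high WT livers (adjusted p = 0.0703). In WT Slc10a2 rose from ZT8 to ZT20 by 2.82 on the log2 scale (adjusted p = 3.86e-05), and in Rev KO the change was 0.69 (adjusted p = 0.116). The list held 7 cholangiocyte markers, of which 6 were tested. Krt19 was called higher at ZT20 than at ZT8 in WT (1.35) and Rev KO (1.20). Sox9 was called higher at ZT20 in WT (1.08) and higher in Rev KO at ZT8 (1.20). The group means of Spp1 were 59.3 CPM in WT and 49.3 in Rev KO at ZT8 and 30.5 and 36 at ZT20, without a call, and Krt7 and Epcam, at most 1.07 and 1.47 CPM in a liver, were not called. The part of these markers in the result of Slc10a2 was not tested.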
